A study of Mus musculus with 18 samples.

Results

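The genes described here encode 6 proteins that bind calcium in the cytosol through EF-hand loops: the buffers parvalbumin (Pvalb), oncomodulin (Ocm), calbindin (Calb1) and calretinin (Calb2), and the sensors Cabp2 and S100a1. Their members are all probes that carry one of these symbols in the deposited signal table, which gave 7 of 45281 probes and 6 of 19057 genes, since Calb2 has 2 probes. All 7 probes passed the filter on dim probes. The data are microarray signals from the inner ear of Atoh1/nGFP mice on the C57BL/6 background at postnatal day 1 (P1). These mice carry a nuclear green fluorescent protein (GFP) driven by Atoh1 sequences, in every group including the GFP-negative ones, and no group was treated. Hair cells (HC) were sorted by GFP together with CD326, a surface protein of epithelia, epithelial non-hair cells (ENHC) as positive for CD326 without GFP, and non-epithelial cells (NEC) as negative for both. Cochlea and vestibular system were sorted separately, with 3 arrays in each of the 6 groups and 18 arrays in all, and each replicate was pooled from several mice. NEC can therefore hold neurons, glia, vessels and blood, and HC hold inner and outer hair cells or hair cells of several vestibular organs together.

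Calcium enters hair cells through transduction channels at the tip of the hair bundle and through voltage-gated channels at the ribbon synapse, where it triggers release onto the afferent neuron. Mobile EF-hand buffers bind this calcium and limit how far and how long it spreads. EF-hand sensors instead change shape on binding calcium and act on partner proteins, such as the calcium channel of the synapse. In the inner ear, calretinin and parvalbumin are also known from afferent neurons, and oncomodulin is best known from outer hair cells.

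On the mouse assembly GRCm38.p6 the genes lie at 15:78191112-78206400 (Pvalb), 5:144019807-144050640 (Ocm), 4:15881264-15906709 (Calb1), 8:110142526-110168212 (Calb2), 19:4081469-4087340 (Cabp2) and 3:90511034-90514330 (S100a1). RefSeq start-site windows, from 250 bases before to 50 bases after an annotated start, were available for 4 of the 6 genes and numbered 6. One window per gene is shown because these 4 genes were all higher in HC than in ENHC of both organs while they differed in the organ that held the higher HC signal. Pvalb was higher in cochlear HC, by a call that leaving out single arrays could remove, and Ocm, Cabp2 and S100a1 were higher in vestibular HC. Capitals mark CAGATG on either strand (CATCTG when read from the other strand), a form of the E-box bound by basic helix-loop-helix factors such as Atoh1. Each window reads 5′ to 3′ in the direction of its gene.
Ocm, chr5:144050560-144050859, minus strand: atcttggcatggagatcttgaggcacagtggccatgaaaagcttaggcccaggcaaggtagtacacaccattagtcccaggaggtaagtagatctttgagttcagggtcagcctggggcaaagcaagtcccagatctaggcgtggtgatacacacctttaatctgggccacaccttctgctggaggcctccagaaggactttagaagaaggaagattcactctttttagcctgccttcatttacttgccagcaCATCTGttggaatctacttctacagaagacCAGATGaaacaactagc
Cabp2, chr19:4082238-4082537, plus strand: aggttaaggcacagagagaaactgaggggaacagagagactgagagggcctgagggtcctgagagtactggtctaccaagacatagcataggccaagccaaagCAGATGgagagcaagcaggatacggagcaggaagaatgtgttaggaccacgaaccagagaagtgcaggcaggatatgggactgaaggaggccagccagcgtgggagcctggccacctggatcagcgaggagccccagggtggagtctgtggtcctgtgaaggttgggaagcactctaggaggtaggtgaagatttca
S100a1, chr3:90514281-90514580, minus strand: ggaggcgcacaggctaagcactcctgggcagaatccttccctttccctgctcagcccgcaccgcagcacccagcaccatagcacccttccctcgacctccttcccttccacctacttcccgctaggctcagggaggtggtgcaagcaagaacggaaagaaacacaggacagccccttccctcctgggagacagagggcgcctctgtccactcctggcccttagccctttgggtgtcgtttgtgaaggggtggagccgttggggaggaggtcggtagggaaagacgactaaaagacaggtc
Pvalb, chr15:78206351-78206650, minus strand: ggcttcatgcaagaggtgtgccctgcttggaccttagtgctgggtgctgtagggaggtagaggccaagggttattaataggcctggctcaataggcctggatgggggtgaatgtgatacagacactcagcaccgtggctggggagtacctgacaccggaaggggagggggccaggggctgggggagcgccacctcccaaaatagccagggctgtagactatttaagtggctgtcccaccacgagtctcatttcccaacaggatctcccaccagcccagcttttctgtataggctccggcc
The Ocm window held the motif at 2 places, starting 4 and 34 bases after the start, and the Cabp2 window held it 147 bases before the start. Neither the S100a1 nor the Pvalb window held it, and 17.2% of all 32851 windows of the same length did. The other E-box CAGCTG (16.3% of all windows), the half-sites GTTGCC (12.5%) and GTTACC (7.21%) of RFX factors, and TATAAA (13.6%) were in none of the 6 windows, on either strand. The CCAAT box (37.4%) was in the second Cabp2 window, which is not shown. A match is a description of these letters and not of a bound site.

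Between 16668 and 19564 probes were detected per array, and array medians of the raw signal ran from 89.2 to 121.8. All 18 arrays correlated best with an array of their own group. The 7 hair cell markers, among them Atoh1, Pou4f3 and Myo7a, were detected on all 3 arrays of both HC groups. Of these markers 5 were detected on no cochlear ENHC array and 4 on no vestibular ENHC array. Only Myo6, which other cells also express, was detected on all arrays of every group. The 5 epithelial markers were detected on all arrays of the HC and ENHC groups, and the 6 mesenchymal markers on all NEC arrays. Some were detected elsewhere too. Cdh1 was detected on all NEC arrays (1909 to 7409) and Krt18 on all vestibular ones, while Epcam, Cldn6 and Krt8 were on none. Col1a2 and Postn were detected on all ENHC arrays, Tbx18 and Col1a1 on all vestibular ENHC arrays, and Col1a2 on all vestibular HC arrays (264 to 374). Pou3f4 and Twist1 were detected on no HC or ENHC array. A probe is called detected here when its deposited detection p-value is under 0.01.

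The raw signal of each probe is given first, in the order of replicates 1, 2 and 3, and the plot of raw signals shows all of them. Differences are between normalized log2 signals ± standard error, with n = 3 arrays per group unless another number is given, and were tested with limma, 2-sided, with Benjamini-Hochberg adjustment over the 24352 probes kept. Where no array of one side detected the probe, the fold is a lower bound, set against the dimmest detected signal of each array, and is written "at least". Where only some arrays of a side detected it, the fold rests in part on background and its size depends on the processing. Signals of different probes were not compared with each other. In sorted bulk samples, fewer cells that express a gene and less RNA per cell cannot be told apart.

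**Figure D1:**
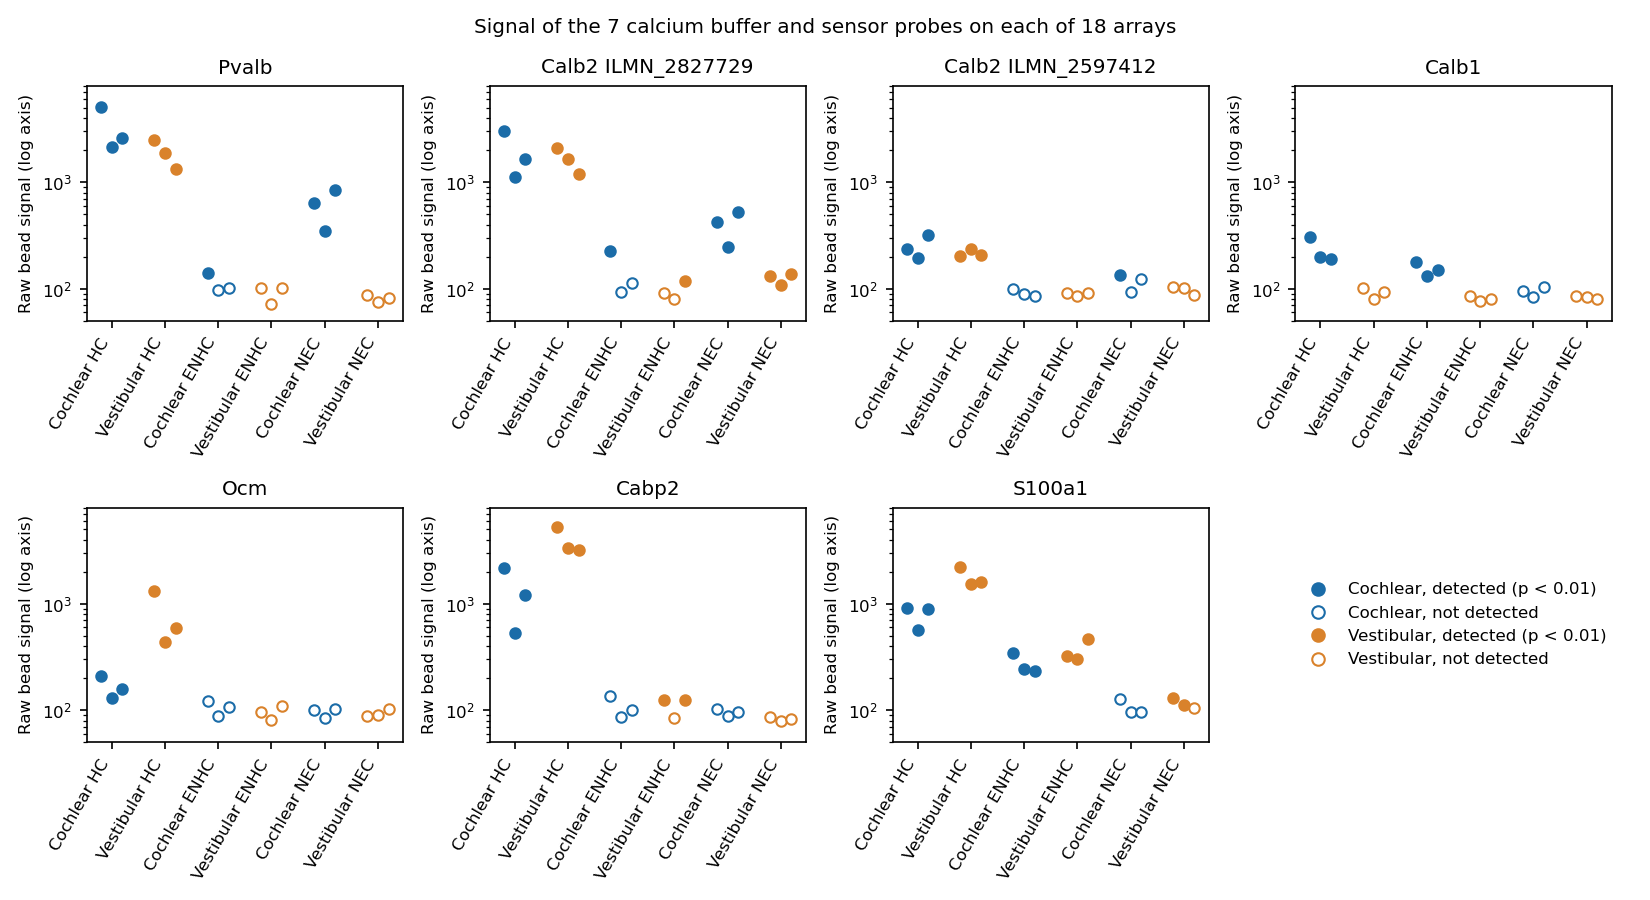
Raw bead signal (log axis) of the 7 probes on each of the 18 arrays, by group. Each point is 1 array, filled where the probe was detected and open where it was not, blue for the cochlea and orange for the vestibular system. Every probe except Calb1 was detected on all HC arrays of both organs, and Calb1 was detected on cochlear HC and ENHC arrays only.

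The buffer Pvalb had 2 separate places of expression, HC of both organs and NEC of the cochlea. In cochlear HC its signal was 5039, 2160 and 2613, and in vestibular HC 2503, 1867 and 1327. The arrays of cochlear NEC gave 635, 351 and 839, whereas those of vestibular NEC gave 88.1, 75.6 and 82.6 and were not detected. In ENHC the signal was 142, 96.6 and 102 in the cochlea, where replicate 1 alone was detected, and 103, 72.6 and 102 in the vestibular system, where none was. All HC arrays thus lay above all NEC arrays, and the cochlear NEC arrays lay above every ENHC array. Pvalb was 98.1-fold higher in HC than in ENHC of the cochlea (log2 6.62 ± 0.26, adjusted p = 1.06e-12) and at least 42.4-fold higher in the vestibular system (adjusted p = 3.22e-12). The cochlear size rests in part on background and ran from log2 4.88 to 6.76 over 27 alternatives. Cochlear HC were 6.79-fold above cochlear NEC (log2 2.76 ± 0.26, adjusted p = 7.5e-08).

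The difference in Pvalb between cochlear and vestibular HC was small beside those between cell types. It was log2 0.88 ± 0.26, a 1.84-fold higher signal in the cochlea (adjusted p = 0.0324). Raw signals of both HC groups overlapped, and the normalized signals did not. This call was lost in 7 of 27 alternatives, 5 of which left out 1 HC array, with adjusted p up to 0.114 (without Vestibular HC replicate 3). Among the alternatives that left out an HC array, only the one without Vestibular HC replicate 2 kept the call.

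The brighter probe of Calb2, which encodes calretinin and is named here by its identifier ILMN_2827729, had a similar layout. Its signal was 3038, 1124 and 1637 in cochlear HC and 2115, 1654 and 1192 in vestibular HC. Cochlear NEC gave 424, 246 and 528 and vestibular NEC 131, 108 and 138, all detected. In ENHC it was 224, 93.8 and 113 in the cochlea and 91.6, 80.8 and 117 in the vestibular system, with 1 array detected in each. HC exceeded every other array, and cochlear NEC exceeded all vestibular NEC and all ENHC arrays. The HC to ENHC difference was 36-fold in the cochlea (log2 5.17 ± 0.4, adjusted p = 7.4e-09) and 53-fold in the vestibular system (log2 5.73 ± 0.4, adjusted p = 2e-09). These sizes rest in part on background. Over 27 alternatives they ran from log2 3.79 to 5.67 and from 3.91 to 6.1. Cochlear ENHC replicate 1 was the array that detected both Pvalb and this Calb2 probe. The summed normalized signal of the 7 hair cell markers was 1646 on that array. It was 1569 and 1894 on the other cochlear ENHC arrays and 11172 to 17114 in cochlear HC. Of the 7 markers only Myo6, which other cells also express, was detected on every cochlear ENHC array, so this sum cannot gauge hair cell RNA there. A part of hair cell RNA in the ENHC signal was not tested.

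The second Calb2 probe, ILMN_2597412, was dimmer and was detected on 7 arrays against 14 for the first. It gave 237, 195 and 319 in cochlear HC and 204, 236 and 208 in vestibular HC. No ENHC array detected it, with signals of 84.8 to 99.4 in the cochlea and 84.7 to 92.2 in the vestibular system. HC exceeded ENHC of the cochlea at least 3.82-fold (adjusted p = 2.59e-07) and at least 3-fold in the vestibular system (adjusted p = 4.15e-06). Among NEC arrays it was detected on 1, in the cochlea. The difference between HC of the 2 organs was not called by either probe, at log2 0.47 (95% confidence interval -0.17 to 1.1, adjusted p = 0.411) for the dim probe and 0.23 (-0.61 to 1.07, adjusted p = 0.821) for the bright one. Both intervals cover a difference as large as that of Pvalb.

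Calb1, the gene of calbindin, was a cochlear signal. In cochlear HC it was 304, 199 and 191, and in cochlear ENHC 177, 132 and 150. The other 12 arrays gave 77.6 to 104.1, and none of them detected the probe. The lowest cochlear HC array lay above the highest cochlear ENHC array, so the groups did not overlap. Cochlear HC were 2.06-fold above cochlear ENHC (log2 1.04 ± 0.16, adjusted p = 5.4e-05) and at least 3.9-fold above vestibular HC (adjusted p = 1.02e-09). Cochlear ENHC were at least 1.78-fold above vestibular ENHC (adjusted p = 2.33e-07) and at least 1.84-fold above cochlear NEC (adjusted p = 1.24e-07). The probe was undetected in vestibular HC, so that Calb1 had no measurable HC to ENHC ratio in that organ.

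Ocm was detected on HC arrays only. Its signal was 211, 131 and 157 in cochlear HC and 1325, 435 and 594 in vestibular HC, while the other 12 arrays lay between 81.9 and 122.6. Every vestibular HC array exceeded every cochlear one. The difference was 6.32-fold (log2 -2.66 ± 0.29, cochlear minus vestibular, adjusted p = 2.64e-06). Against ENHC of the same organ Ocm was at least 2.02-fold higher in the cochlea (adjusted p = 0.000152) and at least 13.8-fold in the vestibular system (adjusted p = 7.4e-10). The HC to ENHC difference was smaller in the cochlea by log2 2.73 ± 0.4 (adjusted p = 0.000157), although with ENHC undetected in both organs this value depends on the offset added to the signals.

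**Figure D2:**
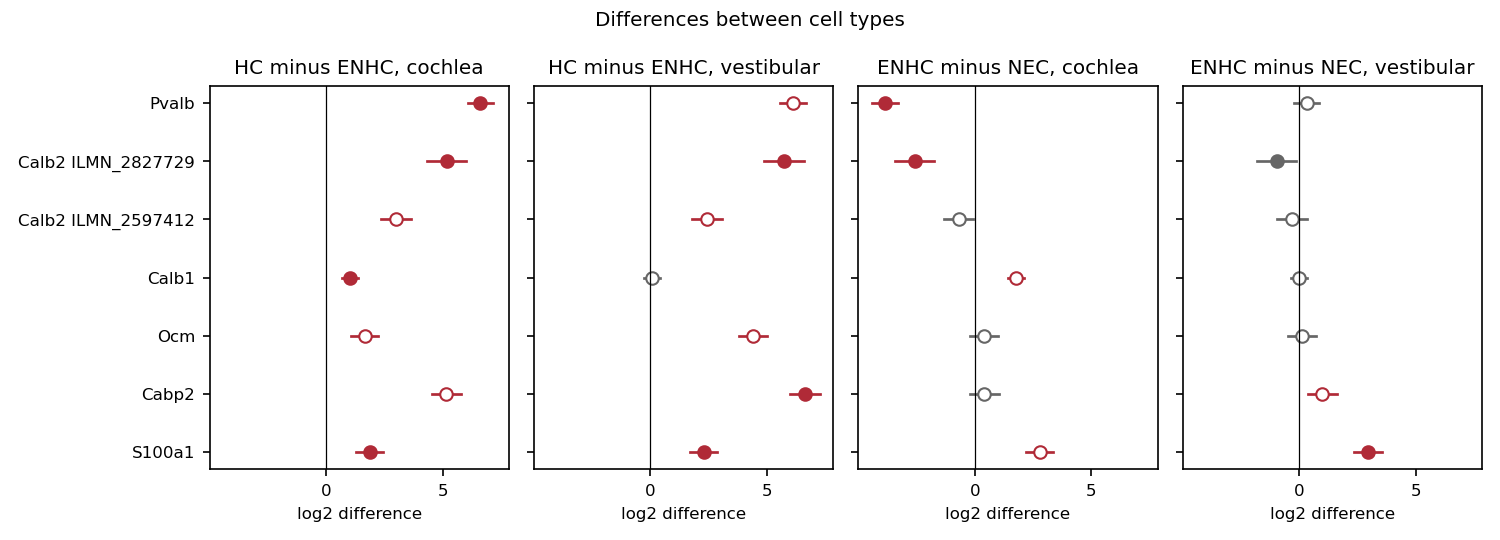
Log2 differences between cell types for the 7 probes, one panel per comparison, with 95% confidence intervals as bars. Red marks an adjusted p under 0.05, and an open circle marks a difference in which 1 or both sides had no detected array, so that its size depends on the offset. All 7 probes were higher in HC than in ENHC of the cochlea, and 6 in the vestibular system.

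Cabp2 encodes a calmodulin-like sensor that modulates the calcium channel of the ribbon synapse. Its signal was 2145, 534 and 1215 in cochlear HC and 5207, 3341 and 3164 in vestibular HC. In the remaining groups the signal was between 78.8 and 137.2, and of those 12 arrays only vestibular ENHC replicates 1 and 3 detected it, at 126 and 126. The HC groups did not overlap each other or any other group. Cabp2 was at least 23.2-fold higher in HC than in ENHC of the cochlea (adjusted p = 1.59e-10) and 98.4-fold higher in the vestibular system (log2 6.62 ± 0.3, adjusted p = 5.43e-12). The vestibular size rests in part on background and ran from log2 5.07 to 6.86 over 27 alternatives. Between organs, vestibular HC were 3.84-fold above cochlear HC (log2 -1.94 ± 0.3, cochlear minus vestibular, adjusted p = 0.000157). The HC to ENHC difference was smaller in the cochlea by log2 1.46 ± 0.42 (adjusted p = 0.0364), a call lost in 11 of 26 alternatives with adjusted p up to 0.202.

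In vestibular ENHC Cabp2 was at least 1.02-fold above vestibular NEC (log2 0.99 ± 0.3, adjusted p = 0.0234). This rested on signals near background, and the call was lost in 11 of 27 alternatives with adjusted p between 0.0533 and 0.149. On the 2 vestibular ENHC arrays that detected Cabp2 the summed hair cell markers were 1728 and 2068, and on the other one 1722. Only Myo6 of these markers was detected on every vestibular ENHC array, so the sum cannot gauge hair cell RNA here either. Whether hair cell RNA contributed was not tested.

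S100a1, an S100 protein that acts on target proteins as a dimer, was the only one of the 7 probes detected on every HC and every ENHC array of both organs. The signal in HC was 911, 571 and 899 in the cochlea and 2233, 1535 and 1586 in the vestibular system. In ENHC it was 347, 243 and 233 in the cochlea and 321, 301 and 471 in the vestibular system. Cochlear NEC gave 127, 95.5 and 97, none detected, and vestibular NEC 129, 111 and 105, of which 2 were detected. Within each organ the cell types did not overlap, with HC above ENHC and ENHC above NEC. HC exceeded ENHC 3.68-fold in the cochlea (log2 1.88 ± 0.28, adjusted p = 3.04e-05) and 4.87-fold in the vestibular system (log2 2.28 ± 0.28, adjusted p = 3.46e-06). ENHC exceeded NEC at least 4.74-fold in the cochlea (adjusted p = 3.52e-07) and 7.74-fold in the vestibular system (log2 2.95 ± 0.28, adjusted p = 1.49e-07).

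Across organs, S100a1 was 2.38-fold higher in vestibular than in cochlear HC (log2 -1.25 ± 0.28, cochlear minus vestibular, adjusted p = 0.00467). The ENHC difference ran the same way, at log2 -0.85 ± 0.28, and missed the threshold (adjusted p = 0.07). It passed in 5 of 27 alternatives, among them those without Cochlear HC replicate 1 and without Vestibular ENHC replicate 1 (adjusted p = 0.0281).

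The 7 probes can be read together by comparison, each count beside the share of all 24352 probes that was called in the same direction. Between HC and ENHC 7 of 7 probes were higher in HC of the cochlea (15.8% of all probes) and 6 of 7 in the vestibular system (14.7%), and none was lower. Ocm and the dim Calb2 probe passed the filter on dim probes only through the HC arrays, where they are high, so their 2 calls add nothing to these counts. Of the 5 probes kept otherwise, 5 were higher in HC of the cochlea and 4 in the vestibular system. The median difference of the 7 was log2 3 in the cochlea and 4.39 in the vestibular system, or 1.93 and 3.79 with undetected sides at their bound. Over all probes it was -0.02 and -0.04. The median of the 7 was the value of the dim Calb2 probe in the cochlea and of Ocm in the vestibular system. Both were kept only through HC arrays, so these medians are not support for a difference. Over both organs together, with 6 arrays on each side, all 7 were higher in HC (20.6% of all probes), and so were all 5 kept otherwise. The median of the 7, log2 3.02, or 2.4 with undetected sides at their bound, was again the value of Ocm. Calb1 had the smallest of these differences, log2 0.55 ± 0.11 (adjusted p = 0.00063), and was the one whose 2 sides overlapped. Its value averages the cochlear difference, log2 1.04, with a vestibular one undetected on both sides, so the call reflects the cochlea alone. For HC against NEC the counts were 7 higher in the cochlea (21.9% of all probes) and 6 in the vestibular system (19%). Ocm and the dim Calb2 probe are in both counts and add nothing there either. Calb1 was the probe not called in the vestibular comparisons, being undetected there on both sides. By the F test among the 6 groups 7 of 7 differed (57.3% of all probes).

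Calls were more divided between ENHC and NEC. In the cochlea Calb1 and S100a1 were higher in ENHC (9.47% of all probes), and Pvalb and Calb2 ILMN_2827729 were higher in NEC (10%). The NEC signals were 14.4-fold (log2 -3.85 ± 0.26, ENHC minus NEC, adjusted p = 1.75e-09) and 5.96-fold (log2 -2.57 ± 0.4, adjusted p = 7.06e-05) above those of ENHC for these 2 probes. In the vestibular system S100a1 and Cabp2 were higher in ENHC (9.44%) and none in NEC. There Calb2 ILMN_2827729 was at log2 -0.96 ± 0.4, ENHC minus NEC, and was not called (adjusted p = 0.113), although it was without Cochlear ENHC replicate 1 (adjusted p = 0.0413) and without Vestibular ENHC replicate 3 (adjusted p = 0.0376).

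Between organs 5 of the 7 probes differed in HC. Pvalb and Calb1 were higher in the cochlea (5.68% of all probes), and Ocm, Cabp2 and S100a1 were higher in the vestibular system (6.43%). Of these calls only that of Pvalb was lost in any alternative. In ENHC 1 differed, Calb1, higher in the cochlea (4.17% of all probes). Calb1 was detected on cochlear HC and ENHC arrays only and passed the filter on dim probes through them, where it is high. Its calls thus add nothing to the counts between organs in HC and ENHC. In NEC 2 differed, Pvalb and Calb2 ILMN_2827729, both higher in the cochlea (2.21% of all probes). Each set of HC arrays serves in several of these comparisons, so that the counts are not independent of each other. The HC to ENHC difference itself differed between organs for 3 probes, Ocm, Calb1 and Cabp2 (8.68% of all probes in either direction).

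**Figure D3:**
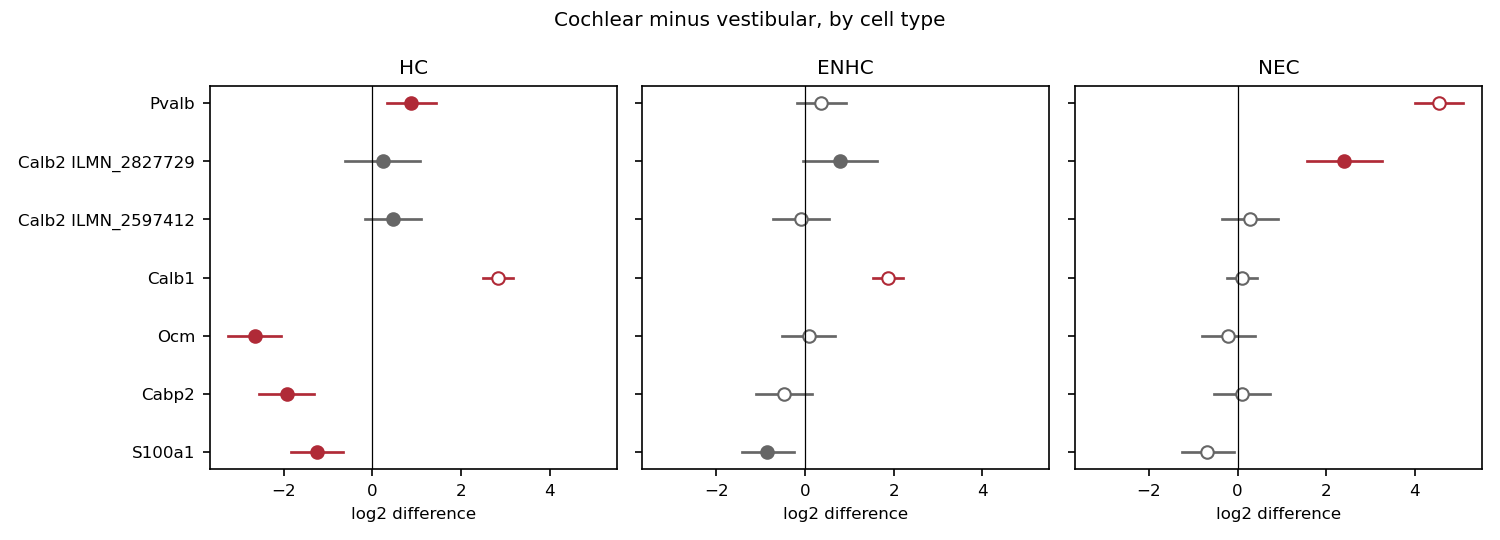
Log2 difference of cochlear minus vestibular signals for the 7 probes in HC, ENHC and NEC, with 95% confidence intervals as bars. Red marks an adjusted p under 0.05 and open circles mark differences with no detected array on 1 or both sides. Pvalb and Calb1 lie to the right of 0 in HC, and Ocm, Cabp2 and S100a1 lie to the left.

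In NEC, Pvalb was at least 11.9-fold higher in the cochlea than in the vestibular system (adjusted p = 5.01e-09) and Calb2 ILMN_2827729 5.3-fold higher (log2 2.41 ± 0.4, adjusted p = 8e-04). Markers of neurons moved the same way. Of 10 such markers 8 were kept, and 5 of them were higher in cochlear NEC and none lower (2.69% of all 12002 genes, each by 1 probe, were higher in cochlear NEC). Tubb3, one of the 5, was detected on 2 cochlear NEC arrays and on no array of another group. It passed the filter only through the group where it is high, so its call adds nothing to this count. None of the 5 was detected on a vestibular NEC array. They were Stmn2 (at least 8.28-fold), Isl1 (at least 5.14-fold), Snap25 (at least 3.3-fold), Elavl4 (at least 2.77-fold) and Tubb3 (at least 1.16-fold), with adjusted p between 1.51e-08 and 0.0176. The receptors Ntrk2 and Ntrk3 and Thy1 were not called, at log2 -0.68, -0.74 and 0.14. The summed normalized signal of the list was 1202 to 1893 on the cochlear NEC arrays and 957 to 1213 on the vestibular ones, which overlap. In vestibular NEC the raw signal was 428 to 778 for Ntrk2 and 312 to 447 for Ntrk3. Isl1, Snap25 and Elavl4 were detected on all HC arrays too. Isl1 was also detected on all ENHC arrays, at 903.2 to 2497.5 in the cochlea against 183.9 to 410.3 in cochlear NEC. Stmn2 was detected on all cochlear ENHC arrays (153.7 to 241.5), and Snap25, Elavl4 and Tubb3 on no ENHC array.

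No glial (of 4), cartilage (of 5) or hair cell (of 7) marker was called between the NEC of the organs. Most hair cell markers were undetected in the NEC of both organs, so their median of log2 0.01 sets background against background and measures no difference. Higher in vestibular NEC were 3 of 4 endothelial markers and 1 marker each of mesenchyme, erythroid cells, macrophages and epithelium. The macrophage marker, Ptprc, was detected on 2 vestibular NEC arrays alone and passed the filter only through them, so its call adds nothing. The hair cell markers Atoh1, Pou4f3, Myo7a and Lhfpl5 were detected on no NEC array, and so were Cabp2 and Ocm. How much of the Pvalb and Calb2 signal of cochlear NEC comes from neurons was not tested. The difference between organs was larger in NEC than in HC for Calb2 ILMN_2827729 by log2 2.18 ± 0.56 (adjusted p = 0.0184) and for Pvalb by log2 3.67 (adjusted p = 2.38e-06), a comparison chosen after the data were seen (9.32% of all probes called). It was also larger than in ENHC for Pvalb, by log2 4.18 (adjusted p = 6.95e-07, 6.19% of all probes called). Since Pvalb was undetected in vestibular NEC and vestibular ENHC, these 2 sizes depend on the offset, and they ran from 1.82 to 3.97 and from 2.49 to 4.48 over 26 alternatives, with the call kept in each.

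**Figure D4:**
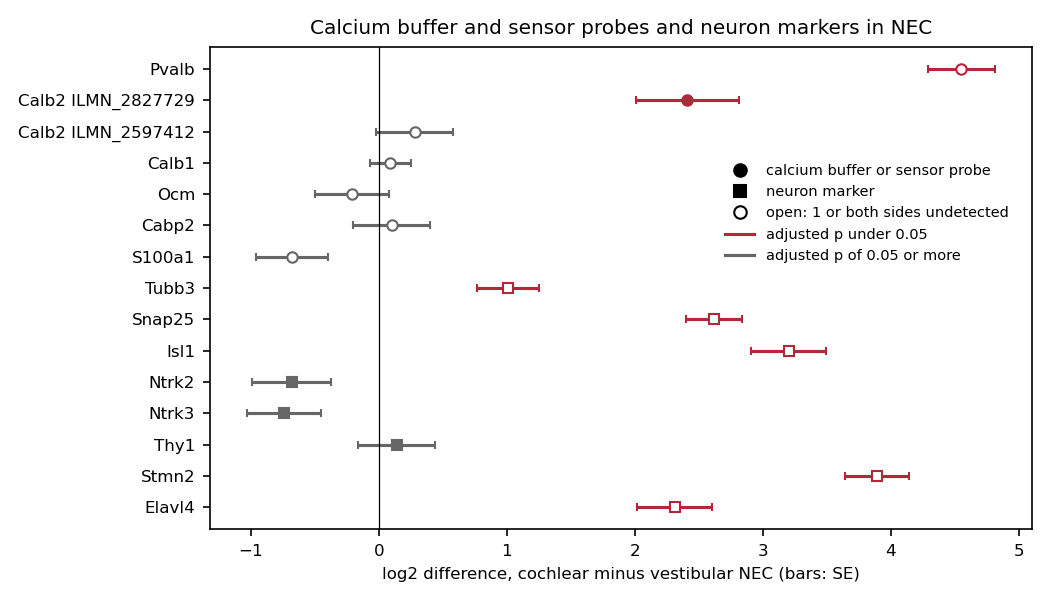
Log2 difference of cochlear minus vestibular NEC, with standard errors as bars, for the 7 calcium buffer and sensor probes (circles) and the 8 neuron markers kept (squares). Red marks an adjusted p under 0.05, and open symbols mark differences with no detected array on 1 or both sides, whose size depends on the offset. Calb2 ILMN_2827729 lies at log2 2.41, and Pvalb and 5 of the 8 markers are called to the right of 0 with vestibular NEC undetected.

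The order of the 6 groups was compared step by step, each group with the next one below it. Pvalb ran from cochlear HC to vestibular HC to cochlear NEC to cochlear ENHC. Each of these 3 steps was called, although the call of the first was lost in 7 of 27 alternatives. The steps to vestibular ENHC and on to vestibular NEC were within the spread (adjusted p = 0.502 and 0.499). Calb2 ILMN_2827729 had cochlear and vestibular HC together at the top, then cochlear NEC, then vestibular NEC with both ENHC groups. The dim probe had the same 2 HC groups at the top, and its single called step was that from vestibular HC to cochlear NEC (log2 1.85 ± 0.3, adjusted p = 6.72e-05). In Cabp2 and Ocm vestibular HC came first and cochlear HC second, and no step between neighbours among the other 4 groups was called. Vestibular ENHC and vestibular NEC, which are not neighbours in the order of Cabp2, did differ for it (adjusted p = 0.0234), near background. S100a1 ran from vestibular HC to cochlear HC to vestibular ENHC, with steps of log2 1.25 ± 0.28 and 1.03 ± 0.28 (adjusted p = 0.0066 for the second). It then fell to cochlear ENHC (step not called) and by log2 2.11 ± 0.28 to vestibular NEC. Calb1 had cochlear HC above cochlear ENHC above 4 undetected groups. In all, 15 of the 35 steps were called.

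As a description over the 18 arrays, which share their normalization and fall into groups of 3 replicates, the patterns of the members were set against each other by Pearson correlation of normalized log2 signals. Pvalb and the bright Calb2 probe were the most alike (r = 0.974), followed by Ocm and Cabp2 (r = 0.941). The 2 probes of Calb2 had r = 0.902. Calb1 was unlike the rest, with r between 0.059 (Ocm) and 0.398 (Calb2 ILMN_2597412). S100a1 was closest to Cabp2 (r = 0.854).

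Of all genes kept, those most like Pvalb were Disp2, Tmem178b, the neurofilament gene Nefm, Sult4a1 and the zinc finger gene Myt1 (r = 0.981 to 0.989). For Calb2 they were Lrp11, Pvalb, Myt1, Nefm and the acid-sensing channel gene Asic1 (r = 0.97 to 0.981). The genes most like Cabp2 were Cfap126, Zfp474, Tctex1d1, Cfap45 and Fam183b (r = 0.987 to 0.991). Those most like Ocm were the actin gene Actc1, Dnajc5b, Mdh1b, Wdr95 and Spag16 (r = 0.973 to 0.978). S100a1 was followed by Chia1, Capsl, Dtna, Ccpg1 and Brip1 (r = 0.966 to 0.98), and Calb1 by Fam172a, Tmem65, Mctp1, Lmo3 and the transcription factor gene Gata3 (r = 0.943 to 0.949).

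The other genes of calcium binding and entry were followed in 7 lists, with each gene represented by 1 probe. For HC against ENHC over both organs, 46.4% of the 12002 genes were called, 21.8% higher and 24.7% lower in HC, and the median over all genes was log2 -0.03. Of the 6 cytosolic EF-hand buffers 5 were kept, and all 5 were higher in HC. Ocm and S100g among them passed the filter only through HC arrays, and Scgn did not pass it. The count thus rests on the other 3, Pvalb, Calb1 and Calb2, of which Calb1 was measurable in the cochlea alone. The one besides the members is S100g, the small calbindin of epithelia, whose signal in HC of 94.3 to 242.7 was detected on the 3 cochlear arrays alone, where it was at least 2.17-fold above ENHC (adjusted p = 1.8e-09). Like Calb1, S100g was higher in cochlear than in vestibular HC, by at least 2.49-fold (adjusted p = 4.67e-08). S100g passed the filter through those cochlear arrays alone, so this call is not support for a difference between organs.

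Of the 11 calmodulins and related CaBP sensors 4 were kept and all were higher in HC, with a median of log2 1.08. Beside Cabp2 (log2 5.89 ± 0.21) these were the calmodulin genes Calm2 (1.1 ± 0.18) and Calm3 (0.85 ± 0.12) and the calmodulin-like Calml4 (1.06 ± 0.13), each detected on all 12 HC and ENHC arrays. Their signals in HC were 1116 to 9295 over the 3 genes. Of the 9 neuronal calcium sensors and potassium channel interacting proteins kept of 13, 5 were higher and 1 lower, but 3 of the 5 had passed the filter only through HC arrays. Neurocalcin (Ncald) rose by log2 2.51 ± 0.15, from 139 to 463 in ENHC to 554 to 2145 in HC, and Hpca was at least 1.95-fold higher. Hpcal1, at least 4.08-fold higher, was one of the 3 kept only through HC arrays, so its call adds nothing to the count. Kcnip3 was another of the 3 and was detected on 2 HC arrays alone. Its signals were 94.8 to 143.4 over HC, against 81.1 to 109.2 in ENHC, and its fold has no lower bound above 1.

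In the S100 family 11 of 17 genes were kept, of which 5 were higher, S100g among them, and 3 lower in HC, with a median of log2 0.15. The list includes S100pbp, which encodes a protein that binds an S100 protein. S100a13, whose protein takes part in release of growth factors, rose by log2 2.46 ± 0.14 (adjusted p = 6.1e-11). S100a10, the partner of annexin A2, and S100a11 were lower by log2 -1.79 ± 0.21 and -1.6 ± 0.14. In HC, 5 of the 11 were higher in the vestibular system and 1, S100g, in the cochlea, where 7.64% and 5.9% of all genes were called. S100g passed the filter only through cochlear HC arrays, so it adds nothing to this count or to that against ENHC. The 5 were S100a1, S100a6, S100a10, S100a11 and S100b, and S100b was at least 4.45-fold higher in vestibular HC (adjusted p = 2.36e-07).

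Of the 5 CIB, NECAB and EFHD genes kept of 9, 3 were higher and 2 lower in HC, and Necab2, one of the 3, had passed the filter only through HC arrays. Cib3, related to the hair cell transduction subunit Cib2, had the largest difference of them at log2 3.48 ± 0.19. In the vestibular system it was log2 6.39 ± 0.27 and in the cochlea 0.57 ± 0.27, which was not called (adjusted p = 0.119). In vestibular HC its signal was 2339 to 4122 and in cochlear HC 85.8 to 149, where 1 of 3 arrays detected it, a 96.6-fold difference that rests in part on background (log2 -6.59 ± 0.27, adjusted p = 1.15e-11). Cib1 was log2 1 ± 0.18 higher, and Efhd1, a mitochondrial calcium sensor, and Efhd2 were lower by -1.32 ± 0.19 and -0.68 ± 0.23. Of the 10 buffers of the endoplasmic reticulum lumen kept of 14, 1 was higher, 4 were lower and 5 were not called, with a median of log2 -0.55. Rcn3 and Rcn2, the reticulocalbins, were lower in HC by log2 -2.37 ± 0.12 and -1.68 ± 0.24, and the chaperone Canx and calumenin (Calu) by -0.77 ± 0.18 and -0.73 ± 0.14.

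All 3 genes kept of 4 for calcium entry and release at the ribbon synapse were higher in HC. Otoferlin (Otof), the calcium sensor of vesicle fusion, reached 437 to 1216 in HC, and no ENHC array detected it, which makes a difference of at least 16.7-fold (adjusted p = 4.01e-14). It passed the filter through HC arrays only. The channel subunits Cacnb2 and Cacna1d rose by log2 2 ± 0.14 and 1.89 ± 0.18. In HC, Otof was higher in the vestibular system (log2 -0.83 ± 0.24, cochlear minus vestibular, adjusted p = 0.032) and Cacnb2 in the cochlea (0.78 ± 0.2, adjusted p = 0.0156). Between the NEC of the organs, 5 of the 46 genes kept over all lists were higher in the cochlea (2.69% of all genes) and 3 in the vestibular system (3.08%). Beside Pvalb and Calb2, the first were visinin-like Vsnl1, at least 3.95-fold (adjusted p = 1.58e-06), Calml4 (log2 1.36 ± 0.18, adjusted p = 9.41e-05) and Efhd1 (1.29 ± 0.26, adjusted p = 0.00512). Higher in vestibular NEC were S100b (log2 -1.79 ± 0.27, cochlear minus vestibular), Ncald (-1.14 ± 0.21) and S100a6 (-0.93 ± 0.25), with adjusted p between 0.000261 and 0.0351.

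**Figure D5:**
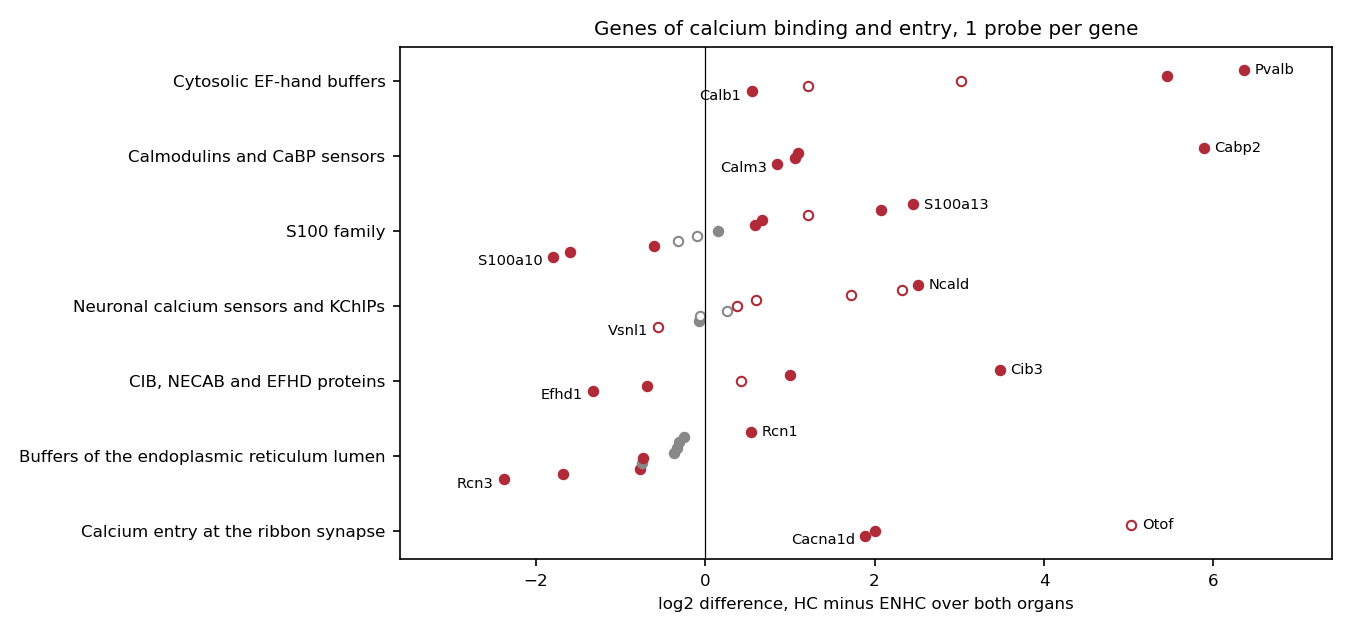
Log2 difference of HC minus ENHC over both organs for each gene kept of the 7 lists, 1 probe per gene, with the highest and the lowest gene of each list named. Red marks an adjusted p under 0.05 and open circles mark genes with no detected array on 1 or both sides. All 5 cytosolic buffers lie to the right of 0, from Calb1 at 0.55, detected in the cochlea alone, to Pvalb at 6.36. In the endoplasmic reticulum list 4 of the 10 genes are called to the left of 0.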

How the data were processed

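Inner ear cells of P1 Atoh1/nGFP mice were sorted by GFP and CD326 into HC, ENHC and NEC of cochlea and vestibular system, 3 biological replicates per group. Per the labels, RNA went through the NuGEN Ovation amplification and biotin labelling. It was put on Illumina whole-genome mouse BeadChips, read with Bead-Studio, its version not given in sources used here. Amplification can compress or stretch differences of dim genes.

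The authors deposited each probe's signal as an intensity without background subtraction or normalization. The authors also deposited a detection p-value for each probe and array, which sets the signal against that array's negative controls. A second deposited table of intensity values equals the quantile-normalized signals to within 0.29%, and it served as an alternative.

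With limma 3.58.1 in R 4.3.3, background was corrected by normexp (estimated from detection p-values), 16 was added, arrays were quantile-normalized and log2 was taken. Of 45281 probes, the 24352 detected (p-value under 0.01) on 2 or more arrays were kept. The offset compresses ratios near background. All 18 arrays entered a fit with one mean per group, and moderated contrasts were called at an adjusted p of 0.05. The fit was tested on simulated data. In the lists, each gene is its kept probe with the highest mean. Array number limits the precision. The p-values measure the spread between arrays within groups, each array from a pool of mice, with any part shared by a replicate number left in it. That spread is 1 moderated estimate per probe over the 6 groups, and groups that did not detect the probe enter it. The standard deviation of Ocm was 0.67 in vestibular HC and 0.1 in cochlear NEC, so a standard error can understate the spread of a wide group. Probe symbols matched RefSeq (GRCm38.p6) by accession for 7 of 7 probes.

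Members, lists and tests were chosen with earlier results of these data known. Named are all member probes, up to 4 called genes per list with the largest HC to ENHC difference, and the 5 genes most correlated with each member. Other list genes named (S100b, S100g, S100a6, S100pbp, Scgn, Necab2, Calb1, Otof and Cacnb2 between organs, and Vsnl1, Calml4, Efhd1 and Ncald in NEC) were chosen after their values were seen. Alternatives were no background correction, an offset of 50, median scaling, the second table, other filters, 1 probe per gene, the replicate number as a block, only the groups compared, an unmoderated 2-way analysis of variance, and leaving out each array.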

Additional observations from a re-analysis of the deposited data

Results flagged for a closer look

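Results are listed here where the difference between 2 groups was itself tested and called. The HC to ENHC difference of the cochlea minus that of the vestibular system was log2 -2.73 for Ocm (adjusted p = 0.000157), 0.97 for Calb1 (adjusted p = 0.00969) and -1.46 for Cabp2 (adjusted p = 0.0364). Ocm and Calb1 each had 2 undetected groups among the 4 and Cabp2 had 1, so that the sizes depend on the offset.

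The organ difference of NEC was set against those of HC and ENHC after the data were seen. Against HC, the cochlear minus vestibular difference of NEC was larger by log2 3.67 for Pvalb, 2.45 for Ocm, 2.18 for Calb2 ILMN_2827729 and 2.04 for Cabp2, and smaller by log2 -2.75 for Calb1. The adjusted p was 2.38e-06, 0.000499, 0.0184, 0.00369 and 2.8e-07 in that order. For Ocm, Calb1 and Cabp2 both NEC groups were undetected, and these values restate their HC differences. Against ENHC it was larger by log2 4.18 for Pvalb (adjusted p = 6.95e-07) and smaller by log2 -1.78 for Calb1 (adjusted p = 4.72e-05). Pvalb was undetected in vestibular NEC and vestibular ENHC, so that its 2 sizes also depend on the offset.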

How the results depend on the processing

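Of 1658 recomputed differences of single probes, 1618 kept their direction and side of the threshold, 33 lost their call, 7 gained one and none reversed. Of 349 recomputed counts, 334 stayed within 1.5 times the main count. The count of probes that differed between ENHC and NEC of the vestibular system went from 2 to 1 with no background correction, with an offset of 50, with median scaling, with the second deposited table, with no filter on detection and with only the groups compared, and ran from 1 to 3 when single arrays were left out. It was 1 without Vestibular ENHC replicate 1 and without each Vestibular NEC replicate. The count between cochlear and vestibular ENHC went from 1 to 2 with no background correction, with an offset of 50 and with the second deposited table, and ran from 1 to 2 when single arrays were left out, with 2 without Cochlear HC replicate 1 and without Vestibular ENHC replicate 1. Leaving out single arrays gave 4 to 5 probes between cochlear and vestibular HC, 2 to 3 for the HC to ENHC difference between organs and 13 to 16 called steps, and left the other counts as they were. Calls lost were those of Pvalb between HC of the 2 organs (adjusted p = 0.106 with median scaling and 0.0592 with no filter), of Cabp2 between vestibular ENHC and NEC and for the HC to ENHC difference between organs, and of Calb2 ILMN_2827729 for the organ difference of NEC against HC (4 of 26 alternatives, adjusted p up to 0.0585). The cause was not tested.

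Median scaling changed the share of called probes that were higher in HC from 48.3% to 60.6% for HC against ENHC of the vestibular system, and the median over all probes from log2 -0.04 to 0.09. Samples share replicate numbers. In deviations from the group means, 17 of 18 arrays correlated best with an array of their own number. Correlations between arrays of the same number ran from -0.033 to 0.499, and from 0.15 to 0.499 for replicate 1. Arrays of the same number thus shared a part of their spread. The labels do not say what a number stands for, so the main fit did not use it, and it was run as a block instead. With the replicate block every count of member probes was as in the main fit, at 7 and 6 probes for HC against ENHC, 5 between HC of the 2 organs, 1 between ENHC and 2 between NEC, and 15 called steps. Over all probes it called more in each of the 11 comparisons, from 9140 against 7758 for cochlear HC and ENHC to 1612 against 1188 for NEC of the 2 organs. The slide as a block was not run, because no slide is given in the headers. Signals near background limit Calb1, Ocm and the dim Calb2 probe, whose ENHC or NEC levels have only an upper bound.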
